A study of Mus musculus with 16 samples.

Results

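Alternative activation is the state of macrophages exposed to interleukin-4 or interleukin-13, and 9 genes of that programme were examined here: Il4ra, Il13ra1, Igf1, Retnla, Chil3, Tgm2, Mgl2, Clec10a and Pdcd1lg2. Members were chosen by name, as the probes whose gene name in the scanner files is one of these symbols or a synonym, and the 9 genes stand among 14066 gene symbols measured. Together they had 15 probes. Chil3 is named Chi3l3 in the files and Clec10a is named Mgl1.

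RNA came from adherent peritoneal cells of male mice of the strain BALB/cByJ-Lpin1fld/J and was read on 16 one-colour arrays. Control mice were heterozygotes, so they carry 1 copy of the mutation, and the other mice were labelled fld, the lipin-1 mutant (fatty liver dystrophy). Cells of each genotype were left untreated or given LPS, the bacterial ligand of TLR4, at 100 ng/ml and 5 h in medium without serum. Each of the 4 groups held 4 arrays, and the design names 4 mice of each genotype without saying whether a mouse gave both an untreated and an LPS array. The mutation is in every cell of the animal, the ages of the mice were not found in the labels, and no group received interleukin-4 or interleukin-13.

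Interleukin-4 and interleukin-13 share the receptor chain encoded by Il4ra. Paired with the common gamma chain it binds interleukin-4, and paired with the chain encoded by Il13ra1 it binds either cytokine. The receptors act through JAK kinases and the transcription factor STAT6, which switches on the secreted proteins Retnla and Chil3, lectins such as Mgl2 and Clec10a, the crosslinking enzyme Tgm2 and the PD-1 ligand Pdcd1lg2. Igf1, a growth factor that macrophages also make without these cytokines, is often counted in the same programme. LPS drives the opposing, inflammatory programme.

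The 250 bases before the transcription start were available in RefSeq (GRCm38.p6) for 7 of the 9 members, and 4 of them are shown because they include Il4ra, which has the largest LPS change among the members' brightest probes, and the 3 members whose window held a STAT-type match. Capitals mark matches, on either strand, to TTCNNNNGAA (the STAT6 spacing), to TTCNNNGAA (the spacing of other STATs), to the kappaB motif by name, or to TTGCNNAA (a loose C/EBP motif). The windows are on chromosome 7 (chr7:125552021-125552270, strand +), chromosome 16 (chr16:48842359-48842608, strand +), chromosome 3 (chr3:106167565-106167814, strand -) and chromosome 19 (chr19:29410669-29410918, strand +).
Il4ra: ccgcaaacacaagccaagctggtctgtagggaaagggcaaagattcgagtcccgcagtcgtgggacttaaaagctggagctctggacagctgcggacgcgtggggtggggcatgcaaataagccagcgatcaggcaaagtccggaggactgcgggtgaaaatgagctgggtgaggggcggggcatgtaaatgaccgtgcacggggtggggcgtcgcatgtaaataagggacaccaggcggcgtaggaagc
Retnla: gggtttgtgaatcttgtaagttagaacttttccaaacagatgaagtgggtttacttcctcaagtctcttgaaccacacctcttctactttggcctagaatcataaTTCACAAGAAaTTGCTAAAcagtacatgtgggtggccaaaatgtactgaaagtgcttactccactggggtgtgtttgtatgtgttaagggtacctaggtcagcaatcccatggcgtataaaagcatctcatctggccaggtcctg
Chil3: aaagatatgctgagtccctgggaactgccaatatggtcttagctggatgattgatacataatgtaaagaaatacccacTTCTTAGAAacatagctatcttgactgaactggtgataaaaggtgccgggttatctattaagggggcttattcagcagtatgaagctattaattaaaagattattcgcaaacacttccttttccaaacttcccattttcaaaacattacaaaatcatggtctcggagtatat
Pdcd1lg2: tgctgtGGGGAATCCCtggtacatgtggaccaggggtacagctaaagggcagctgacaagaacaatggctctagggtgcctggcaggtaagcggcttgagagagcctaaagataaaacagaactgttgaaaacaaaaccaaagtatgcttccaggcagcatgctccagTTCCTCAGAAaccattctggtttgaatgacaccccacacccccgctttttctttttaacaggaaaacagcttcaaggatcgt

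TTCNNNNGAA was found in Retnla, as TTCACAAGAA 145 to 136 bases before the start, and in Pdcd1lg2, as TTCCTCAGAA 82 to 73 bases before it. The 3-base spacing occurred in Chil3 alone of the 7 windows, as TTCTTAGAA 172 to 164 bases before the start. Pdcd1lg2 also held a kappaB match, GGGGAATCCC, 244 to 235 bases before the start, and Retnla a C/EBP-type match, TTGCTAAA, 134 to 127 bases before it. Of 32851 promoter windows of the same length, 5.85% held TTCNNNNGAA, 7.02% held TTCNNNGAA, 7.25% the kappaB motif and 9.56% TTGCNNAA. Retnla, Chil3 and Pdcd1lg2 did not pass the LPS test described below. The windows of Il4ra, Il13ra1, Igf1 and Mgl2 held none of the 4 letter patterns, and a match or its lack describes these letters only.

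Levels are log2 of the processed intensity minus the array's 75th percentile, so 0 is the 75th percentile of an array, and a level can be compared between arrays for 1 probe but not between probes. Between 58.7% and 65.4% of an array's spots were well above background, the 75th percentile of intensity ranged from 189.2 to 627, and replicate arrays had correlations of 0.961 to 0.993 over all features. LPS replicate 4 of the arrays labelled fld had both the lowest share and the lowest 75th percentile. Precision is limited by the number of arrays. A slide held the 4 arrays of 1 group and no others, so in every comparison below the slide and the group cannot be told apart. Of the 4 Lpin1 probes, 1 was well above background on all 16 arrays. The other 3 were well above background on both arrays labelled fld replicate 4 (levels from -3.54 to -1.36), and on the other 6 arrays labelled fld they were not, apart from 1 probe on LPS replicate 3. The group is therefore called labelled fld, and values without both replicate 4 arrays are given beside the results. All 6 macrophage markers checked, among them Adgre1, Csf1r and Cd68, were well above background on every array, as were all 5 B cell and all 6 mast cell markers, so the adherent cells were not macrophages alone. In such bulk RNA fewer cells of a type and less RNA per cell cannot be told apart.

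All 15 member probes passed the filter on dim probes, and 14 of them were well above background on all 16 arrays. In control cells LPS raised Il4ra 4.15-fold and Tgm2 2.88-fold and lowered Igf1 2.40-fold. In cells labelled fld the same 3 genes were called, at 4.39-fold, 2.34-fold and 3.03-fold, and Clec10a fell 3.65-fold as well. The other 5 members, Retnla, Chil3, Mgl2, Pdcd1lg2 and Il13ra1, did not pass the LPS test in either genotype. Between genotypes only Il13ra1 without LPS was called, at 2.36-fold higher in the arrays labelled fld.

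**Figure D1:**
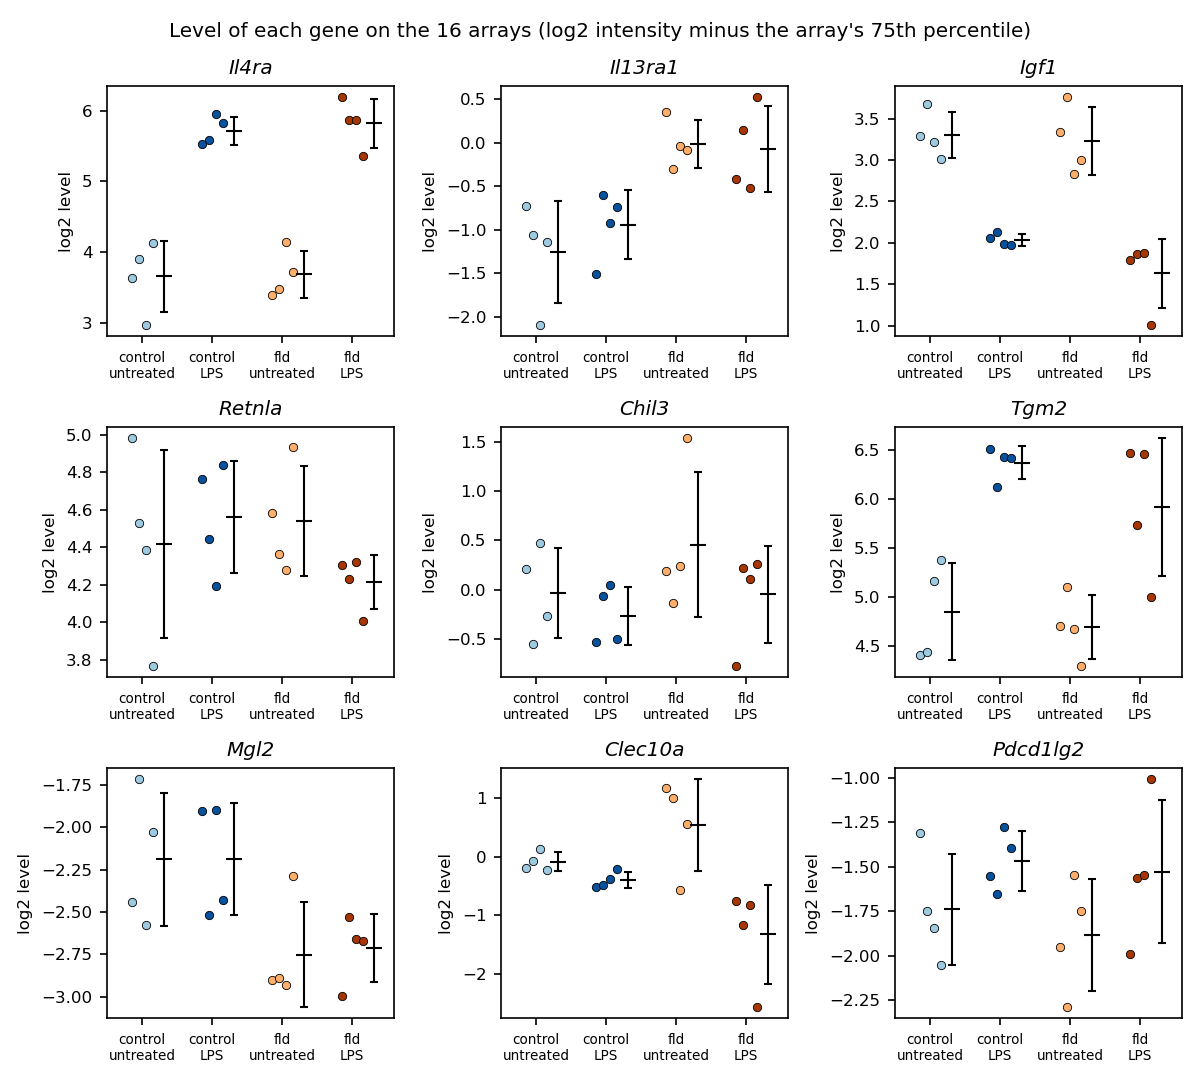
Level of each of the 9 genes on the 16 arrays, in log2 units above the array's 75th percentile, for its brightest probe. Points are single arrays in replicate order and bars are the group mean with SD (n = 4). Il4ra and Tgm2 sit higher and Igf1 lower with LPS, Il13ra1 sits higher in both groups labelled fld, and Clec10a is lowest in the fld LPS group.

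Called means an adjusted p under 0.05 in limma, with Benjamini-Hochberg adjustment over all 17461 features tested. In control cells 3 of the 9 members were called with LPS, 2 higher and 1 lower, where 29.5% of all features were called (14.5% higher and 14.9% lower). In cells labelled fld 4 of 9 were called, 2 higher and 2 lower, against 39.6% of all features (21.6% higher and 18% lower). Arrays with and without LPS did not overlap for 3 members in control cells, where 33.2% of features did not overlap, and for 3 members in cells labelled fld, against 37.7%. The members' shares are thus near those of all features. The median change over the 9 members was 0.15 in control cells and -0.05 in cells labelled fld, beside 0.03 and 0.06 over all features.

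**Figure D2:**
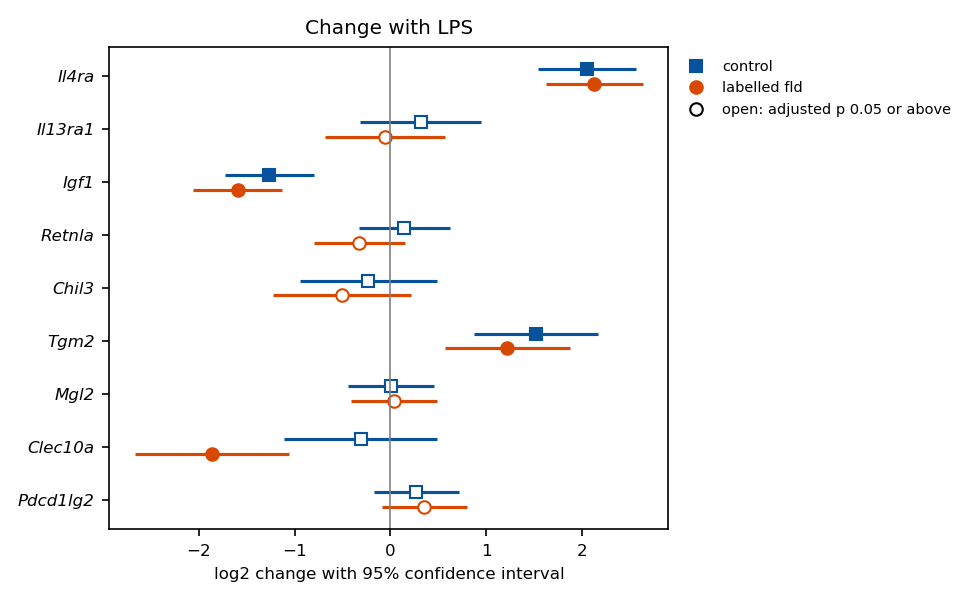
Log2 change with LPS over untreated for each gene, with its 95% confidence interval from limma, in control arrays (squares) and arrays labelled fld (circles). Filled symbols passed the test and open ones did not. Il4ra, Tgm2 and Igf1 are filled in both genotypes and Clec10a in the fld arrays only.

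Il4ra encodes the shared receptor chain. Its probe lies on chromosome 7 at 121674181 to 121674240 by the coordinates of the scanner files. Their genome build was not found in the headers or labels, so no exon annotation was used for any probe. Untreated control arrays read 3.64, 3.91, 2.97 and 4.13, and LPS control arrays read 5.52, 5.58, 5.94 and 5.82. Untreated arrays labelled fld read 3.40, 3.48, 4.14 and 3.73, and their LPS counterparts read 6.19, 5.87, 5.87 and 5.35. Every LPS array was higher than every untreated array of either genotype. The log2 change was 2.05 (SE 0.24, limma adjusted p 1.79e-05) in control cells and 2.13 (SE 0.24, adjusted p 1.12e-05) in cells labelled fld. These kept their call under all 27 alternatives run, with changes from 1.82 to 2.21 in control cells and from 1.89 to 2.30 in cells labelled fld. The difference between the genotypes' LPS changes was 0.08 (95% interval -0.64 to 0.80).

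Il13ra1 encodes the chain that joins Il4ra to make the receptor for interleukin-13. Its brighter probe (chromosome X, 30928921 to 30928980) read -0.73, -1.06, -2.09 and -1.14 on untreated control arrays and -1.50, -0.60, -0.92 and -0.74 on LPS control arrays. It read 0.36, -0.30, -0.04 and -0.08 on untreated arrays labelled fld and -0.42, 0.15, -0.52 and 0.52 on LPS arrays labelled fld. All 8 arrays labelled fld were above all 8 control arrays, and within a genotype the treated and untreated arrays overlapped. The LPS change was 0.32 (SE 0.29, adjusted p 0.462) in control cells and -0.05 (SE 0.29, adjusted p 0.900) in cells labelled fld. The log2 ratio of the Il4ra probe to this probe within an array was 4.37 to 5.27 without LPS and 6.18 to 7.03 with LPS in control arrays, and 3.04 to 4.18 against 4.83 to 6.61 in arrays labelled fld. The receptor genes therefore changed unequally with LPS on these arrays, a comparison chosen after the values were seen and not tested.

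A further Il13ra1 probe lies 1001 bases on (30929922 to 30929981). It read -2.05, -2.10, -2.39 and -1.83 on untreated control arrays and -2.62, -1.94, -1.74 and -1.99 with LPS. On untreated arrays labelled fld it read -0.58, -0.94, -0.97 and -1.17, and on LPS arrays labelled fld -1.61, -1.53, -1.73 and -1.51. This probe fell with LPS in cells labelled fld by 0.68 (SE 0.18, adjusted p 0.00778) with no overlap, where the brighter probe changed by -0.05. Its change in control cells was 0.02 (SE 0.18, adjusted p 0.952). Across the 16 arrays the probes correlated at 0.80, and the LPS result for Il13ra1 in cells labelled fld depends on which is read.

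Igf1 encodes insulin-like growth factor 1, a secreted growth and survival factor. Its brightest probe, spotted 10 times per array (chromosome 10, 87488982 to 87489041), read 3.30, 3.68, 3.21 and 3.02 on untreated control arrays and 2.06, 2.13, 1.98 and 1.98 with LPS. On untreated arrays labelled fld it read 3.34, 3.76, 2.83 and 3.0, and on LPS arrays labelled fld 1.79, 1.86, 1.87 and 1.01. Untreated and LPS arrays did not overlap in either genotype, and LPS replicate 4 of the arrays labelled fld was the lowest of all. Igf1 fell in both genotypes, with log2 changes of -1.26 (SE 0.22, adjusted p 0.000505) in control cells and -1.60 (SE 0.22, adjusted p 6.78e-05) in cells labelled fld. Without both replicate 4 arrays labelled fld the latter was -1.47 (adjusted p 0.000204), and over all alternatives its adjusted p ran from 1.81e-06 to 0.00312.

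Another Igf1 probe 17098 bases before the first (87471884 to 87471943) correlated with it at 0.99 over the 16 arrays and fell as well, with -1.37 in control cells (SE 0.21, adjusted p 2e-04) and -1.63 in cells labelled fld (SE 0.21, adjusted p 4.09e-05). The remaining Igf1 probe, 68134 bases before it (87420848 to 87420907), is matched in the files to cDNA clones only and not to a RefSeq transcript. It was well above background on all 8 untreated arrays and on none of the 8 LPS arrays. Its untreated means were -0.89 ± 0.27 in control arrays and -1.53 ± 0.45 in arrays labelled fld (SD, n = 4). With LPS it was at least 17.5-fold lower in control cells and at least 7.74-fold lower in cells labelled fld. The probe passed the filter on dim probes through its untreated arrays alone, so its fall is not separate support for the other Igf1 probes. The bound sets the mean of the untreated arrays against, on each LPS array, the higher of the probe's own signal and the lowest signal well above background. All 3 Igf1 probes read lower with LPS but not by the same amount. A mean over them depends on readings below background (-2.53 in control cells, not an exact size).

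**Figure D3:**
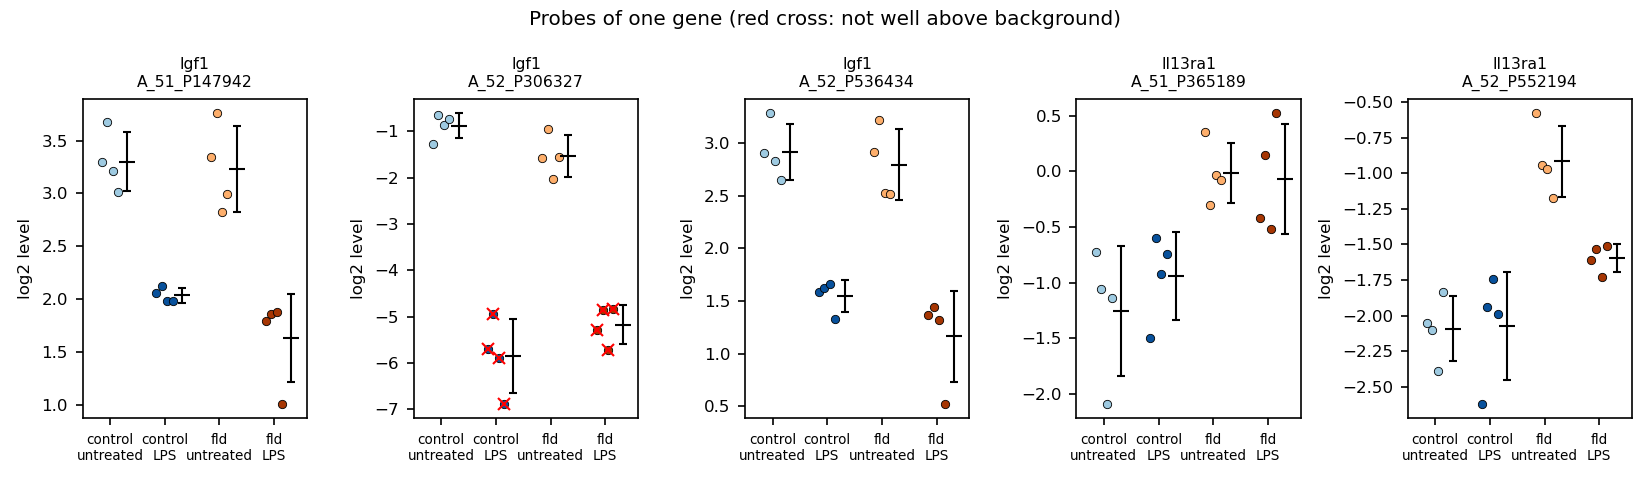
Level on the 16 arrays of each of the 3 Igf1 probes and the 2 Il13ra1 probes, in log2 units above the array's 75th percentile, each on its own axis. Points are arrays in replicate order, bars are the mean with SD (n = 4), and red crosses mark readings not well above background. The Igf1 probe A_52_P306327 is crossed on all 8 LPS arrays, and the Il13ra1 probe A_52_P552194 sits lower with LPS in the arrays labelled fld.

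Some macrophage markers fell with LPS beside Igf1. Csf1r, the receptor of macrophage colony-stimulating factor, changed by -1.71 (adjusted p 0.0076) with LPS in control cells and by -2.43 (0.000578) in cells labelled fld, and Cd68 by -0.96 (0.0149) and -1.01 (0.014). Adgre1 changed by -0.58 (0.271) and -1.49 (0.00402), Mertk by -0.82 (0.377) and -1.37 (0.104) and Itgam by -0.19 (0.736) and -0.59 (0.209), while Cd14 changed by 1.31 (0.00016) and 1.06 (0.00041). The summed level of the 6 macrophage markers, in multiples of the 75th percentile, on the arrays where all 6 had an unflagged reading, was 444 to 487 on 3 untreated and 750 to 840 on 2 LPS control arrays, and 465 to 608 on 3 untreated and 723 to 778 on 3 LPS arrays labelled fld. Cd14, which rose, has the highest level of the 6 and weighs most in that sum. Their part in the Igf1 result was not tested.

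Retnla encodes the secreted resistin-like protein RELM-alpha, a classical product of interleukin-4 signalling. Its brighter probe (chromosome 16, 48604517 to 48604576) read 4.98, 4.53, 4.38 and 3.77 on untreated control arrays and 4.77, 4.44, 4.20 and 4.84 with LPS. It read 4.58, 4.37, 4.28 and 4.94 on untreated arrays labelled fld and 4.31, 4.23, 4.32 and 4.01 with LPS. The 4 groups overlapped throughout. The LPS change was 0.15 (95% interval -0.33 to 0.62, adjusted p 0.672) in control cells and -0.33 (-0.80 to 0.15, adjusted p 0.255) in cells labelled fld, so the intervals leave out a fold change as large as that of Il4ra. The other Retnla probe starts 10 bases away and overlaps it, so its correlation of 0.99 with the first is no separate reading. On that probe too the LPS change did not pass in either genotype, although the arrays labelled fld did not overlap (-0.37, adjusted p 0.201).

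Chil3 encodes the secreted chitinase-like protein Ym1. Its probe (chromosome 3, 105965855 to 105965914) read 0.21, -0.55, 0.47 and -0.27 on untreated control arrays and -0.53, -0.07, 0.04 and -0.51 with LPS. It read 0.19, -0.14, 0.24 and 1.53 on untreated arrays labelled fld and -0.78, 0.21, 0.10 and 0.26 with LPS. All 4 groups overlapped, and the highest reading was replicate 4 of the untreated arrays labelled fld. The LPS change was -0.23 (-0.95 to 0.49, adjusted p 0.658) in control cells and -0.51 (-1.23 to 0.21, adjusted p 0.244) in cells labelled fld. Chil3 has a near-identical neighbour, Chil4, whose own probe lists a Chil3 transcript too and was well above background on 2 of 16 arrays. The shared transcript makes the Chil4 reading ambiguous, and whether the Chil3 probe also reads Chil4 RNA was not tested.

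Tgm2 encodes transglutaminase 2, which crosslinks proteins. Its brightest probe (chromosome 2, 157857429 to 157857488) read 4.41, 4.44, 5.16 and 5.37 on untreated control arrays and 6.51, 6.13, 6.43 and 6.42 with LPS. It read 4.70, 5.10, 4.67 and 4.29 on untreated arrays labelled fld and 6.47, 5.74, 6.46 and 5.00 with LPS. Control arrays did not overlap, while in arrays labelled fld LPS replicate 4 lay below untreated replicate 2. Tgm2 rose by 1.53 (SE 0.30, adjusted p 0.00154) in control cells and by 1.22 (SE 0.30, adjusted p 0.00583) in cells labelled fld, the latter 1.40 (adjusted p 0.00201) without both replicate 4 arrays and with an adjusted p from 0.000553 to 0.0347 over all alternatives. The other 2 Tgm2 probes (157861017 to 157861076 and 157859836 to 157861036) have overlapping coordinates, so they are not readings separate from each other. They rose by 1.52 and 1.46 in control cells and by 1.47 and 1.45 in cells labelled fld, with limma adjusted p from 0.00249 to 0.00289. On both, treated and untreated arrays did not overlap in either genotype, and both correlated with the first probe at 0.97 over the 16 arrays.

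Mgl2 and Clec10a encode neighbouring galactose-type lectins that bind glycans, and both lie on chromosome 11. The Mgl2 probe (70218604 to 70218663) read -2.44, -1.72, -2.58 and -2.03 on untreated control arrays and -1.91, -2.52, -1.90 and -2.43 with LPS. It read -2.90, -2.89, -2.93 and -2.29 on untreated arrays labelled fld and -3.0, -2.53, -2.66 and -2.67 with LPS. Within each genotype the arrays overlapped. The LPS change was 0.00 (-0.45 to 0.45, adjusted p 0.993) in control cells and 0.04 (-0.41 to 0.49, adjusted p 0.899) in cells labelled fld.

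The Clec10a probe (70252304 to 70252363) read -0.20, -0.07, 0.13 and -0.22 on untreated control arrays and -0.52, -0.48, -0.39 and -0.21 with LPS. It read 1.17, 0.99, -0.56 and 0.56 on untreated arrays labelled fld and -0.75, -1.16, -0.83 and -2.56 with LPS. Arrays labelled fld spread more widely than control arrays, and every LPS array labelled fld was below every other array. Clec10a fell by 1.87 (SE 0.38, adjusted p 0.00149) with LPS in cells labelled fld, and its change in control cells was -0.31 (SE 0.38, adjusted p 0.582). Without both replicate 4 arrays the former was -1.45 (adjusted p 0.00608), and over all alternatives its adjusted p ran from 0.00021 to 0.0213. The difference between the genotypes was -1.55 (95% interval -2.69 to -0.42, limma unadjusted p 0.0108, adjusted p 0.356), so a genotype difference in the Clec10a response did not pass the test. The within-array log2 ratio of the Clec10a to the Mgl2 probe was 2.37 to 4.07 without LPS and 0.11 to 2.25 with LPS in arrays labelled fld, against 1.65 to 2.71 and 1.38 to 2.22 in control arrays, a description chosen after the values were seen.

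Both lectins are also made by dendritic cells, whose 6 markers were well above background on every array. Their summed level, on arrays with every marker read, ran from 7.86 to 8.88 in 3 untreated and 9.29 to 10.5 in 3 LPS control arrays, and from 7.92 to 9.64 and 9.39 to 13.6 in arrays labelled fld. Most of that sum is Ccr7, which rose with LPS in cells labelled fld (0.62, adjusted p 0.00591). In the same cells Cd209a changed by 1.24 (0.00344), Flt3 by 0.71 (0.0186), Zbtb46 by 0.24 (0.168), Irf4 by 0.28 (0.413) and Itgax by -0.82 (0.122). The markers that passed there all rose, and only Itgax, which did not pass, had a negative value. Between untreated genotypes, Cd209a was lower in untreated arrays labelled fld (-1.59, adjusted p 0.00648) and Zbtb46 higher (0.52, adjusted p 0.035). Between LPS groups, Flt3 (0.98, limma adjusted p 0.00888) and Zbtb46 (0.56, 0.00811) were higher in arrays labelled fld. The others did not pass there, with Ccr7 at 0.08 (0.805), Irf4 at 0.07 (0.905), Cd209a at -0.05 (0.938) and Itgax at -0.32 (0.689). Adgre1 and Csf1r fell with LPS beside Clec10a in cells labelled fld, with the values given above, and the part of any of these markers in that result was not tested.

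Pdcd1lg2 encodes PD-L2, a ligand of the inhibitory receptor PD-1. Its probe (chromosome 19, 29170374 to 29170433) read -1.31, -1.74, -1.84 and -2.05 on untreated control arrays and -1.55, -1.65, -1.27 and -1.39 with LPS. It read -1.95, -2.29, -1.55 and -1.75 on untreated arrays labelled fld and -1.99, -1.56, -1.54 and -1.01 with LPS. The 4 groups overlapped. The LPS change was 0.27 (-0.17 to 0.72, adjusted p 0.363) in control cells and 0.36 (-0.09 to 0.80, adjusted p 0.184) in cells labelled fld. Cd274, which encodes the other PD-1 ligand PD-L1, rose by 1.49 (adjusted p 8.32e-05) and 1.05 (adjusted p 0.00122). The within-array log2 ratio of Cd274 to Pdcd1lg2 was 5.79 to 6.41 without and 7.24 to 7.53 with LPS in control arrays, and 6.41 to 7.0 and 6.54 to 8.12 in arrays labelled fld.

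Genotypes were then compared at each treatment, with untreated arrays labelled fld against untreated control arrays and LPS against LPS. Both comparisons use other pairs of the same 16 arrays as the LPS comparisons. Without LPS 1 of 9 members was called, higher, where 5.14% of all features were called (4.93% higher and 0.218% lower), and groups did not overlap for 1 member against 15.7% of features. With LPS none of the 9 was called in limma, 3 had an unadjusted p under 0.05, and 17% of features were called (16.1% higher and 0.916% lower). Groups did not overlap for 4 members with LPS, Il13ra1, Clec10a, Igf1 and Mgl2, against 20.3% of features. The median over the 9 members was 0.02 without and -0.35 with LPS, beside 0.06 and 0.03 over all features.

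Il13ra1 was higher in untreated arrays labelled fld by 1.24 (SE 0.29, adjusted p 0.0251), and its further probe by 1.18 (SE 0.18, adjusted p 0.00251). The call on the brighter probe was held in 21 of 27 alternatives, with changes from 0.96 to 1.42 and an adjusted p from 0.00752 to 0.0961. These 27 include leaving out LPS arrays, which are not in this comparison, and the deposited value table, which repeats the scaling by array medians. The call was lost with another background correction (normexp, 1.03, adjusted p 0.0872), and on leaving out untreated control replicate 2 (1.31, 0.0521) or 3 (0.96, 0.0707) or untreated fld replicate 1 (1.12, 0.0961), 3 (1.25, 0.0507) or 4 (1.26, 0.0581). It therefore depended on single arrays of the groups compared. With LPS the difference was 0.87 (SE 0.29, adjusted p 0.0562) on the brighter probe and 0.48 (SE 0.18, adjusted p 0.0839) on the other, without overlap on either. Leaving out both replicate 4 arrays labelled fld gave 1.26 (adjusted p 0.0291) without LPS and 0.68 (adjusted p 0.208) with it, and with LPS the adjusted p ran from 0.0232 to 0.208 over all alternatives. Genes that mark fibroblasts and mesothelial cells did not pass between genotypes without LPS where tested, with Col1a1 at 1.11 (adjusted p 0.256), Col1a2 at 0.43 (0.566), Dcn at 0.66 (0.563), Col3a1 at -0.14 (0.893), Msln at 0.19 (0.894) and Krt19 at 0.15 (0.838). With LPS Col1a1 (2.45, adjusted p 0.00339) and Col1a2 (1.39, 0.0102) were higher in arrays labelled fld, and Dcn (0.03, 0.982), Col3a1 (0.03, 0.971), Msln (0.31, 0.75) and Krt19 (0.30, 0.534) did not pass. Col1a1 was well above background on 2 of 4 untreated and 3 of 4 LPS control arrays. Col3a1 was so on 1 of 4 arrays in each LPS group, so the sizes for these genes are not firmly measured. Of the 8 mesothelial and fibroblast markers 5 were well above background on all untreated arrays of each genotype, Wt1 was not on any array, and the summed level was 1.28 to 3.59 in the 3 untreated control arrays with every marker read, 1.21 to 2.63 in LPS control, 2.52 to 4.44 in untreated fld and 2.27 to 4.40 in LPS fld arrays. The part of these markers in the Il13ra1 result was not tested.

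**Figure D4:**
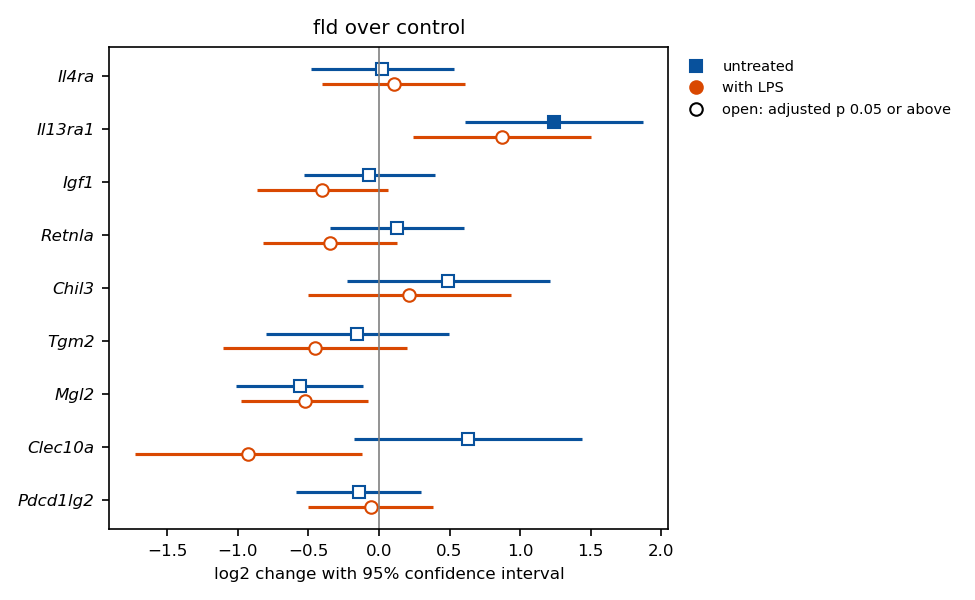
Log2 difference of arrays labelled fld over control arrays for each gene, with its 95% confidence interval from limma, without LPS (squares) and with LPS (circles). Filled symbols passed the test. Only the untreated Il13ra1 difference of 1.24 is filled, and the intervals of Mgl2 lie below 0 at both treatments without passing after adjustment.

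The other members' differences between genotypes did not pass. Mgl2 differed by -0.56 (SE 0.21, adjusted p 0.152) without LPS and by -0.53 (SE 0.21, adjusted p 0.113) with it. Clec10a differed by 0.63 (SE 0.38, adjusted p 0.415) without and -0.92 (SE 0.38, adjusted p 0.12) with LPS, and the latter was -0.51 without both replicate 4 arrays. For Igf1 the differences were -0.07 (adjusted p 0.915) and -0.40 (0.265), for Retnla 0.13 (0.836) and -0.35 (0.367), and for Tgm2 -0.15 (0.854) and -0.45 (0.391). Il4ra differed by 0.02 (95% interval -0.49 to 0.53) without and 0.10 (-0.41 to 0.61) with LPS, Pdcd1lg2 by -0.15 (-0.59 to 0.30) and -0.06 (-0.51 to 0.39), and Chil3 by 0.49 (-0.23 to 1.21) and 0.22 (-0.50 to 0.94).

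Among values that did not pass, several moved without both replicate 4 arrays labelled fld. The Chil3 difference between untreated genotypes went from 0.49 to 0.13 and its LPS change in cells labelled fld from -0.51 to -0.25, and the LPS change of Retnla there from -0.33 to -0.12. With LPS the genotype difference of Tgm2 went from -0.45 to -0.15, of Igf1 from -0.40 to -0.19, of Pdcd1lg2 from -0.06 to -0.23 and of Il4ra from 0.10 to 0.26. The Mgl2 difference between untreated genotypes went from -0.56 to -0.72 (limma adjusted p 0.0665). For Clec10a the difference between LPS responses went from -1.55 to -1.13. None of these passed the test in either form.

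How arrays are scaled bears on the comparison with LPS. When each array was centred on its median in place of its 75th percentile, the median of all features moved from 0.03 to -0.37, and the features called turned from 2809 higher and 160 lower to 1999 higher and 6455 lower. Under that scaling 4 members were called lower in LPS arrays labelled fld: Mgl2 (-0.93, adjusted p 0.00822), Clec10a (-1.32, 0.02), Retnla (-0.75, 0.0205) and Igf1 (-0.80, 0.0238). Relative to the shifted median these are -0.55, -0.95, -0.37 and -0.43. Over all alternatives the adjusted p reached 0.639 for Mgl2, 0.389 for Clec10a, 0.619 for Retnla and 0.939 for Igf1. With quantile normalization 1847 features were called higher and 637 lower, and of the members Mgl2 alone was called (-0.87, adjusted p 0.012). For the LPS comparison in cells labelled fld the split was 3778 higher and 3143 lower, and 1966 and 4667 with array medians, while the same 4 members were called. Without LPS the split between genotypes was 860 higher and 38 lower, and 653 and 113 with array medians.

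The difference between the genotypes' LPS responses was called for 0 of 9 members and for 0% of features in limma, with 1 member, Clec10a, and 1629 of 17461 features at an unadjusted p under 0.05. Under the alternatives 0 members were called in each. Besides Clec10a, the differences ranged from -0.47 for Retnla (95% interval -1.15 to 0.20) to 0.09 for Pdcd1lg2 (-0.54 to 0.71), and on the brightest probes the intervals of all 8 include 0. The further Il13ra1 probe differed by -0.70 (95% interval -1.23 to -0.16, unadjusted p 0.0141, adjusted p 0.389), an interval without 0, and did not pass either. The Igf1 probe below background with LPS gives only bounds, so its difference between genotypes is not read.

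Other genes of the pathway were read from 4 lists with 60 genes, 51 of them tested. With LPS in control cells 20 were called higher, 12 lower and 19 not, and in cells labelled fld 18, 15 and 18. Their median change was 0.31 and 0.28, against 0.03 and 0.06 over all features. The called shares of these genes were above the 29.5% and 39.6% of all features given above. The lists were chosen with earlier results of these data known and were not tested as sets. In the list of receptor and signalling genes 5 of 11 rose in control cells: the feedback inhibitors Cish (2.24) and Socs1 (1.29), the kinases Jak2 (2.11) and Jak1 (0.48), and the common gamma chain Il2rg (0.60). Stat6 fell by 0.51 (adjusted p 0.000516) in control cells and changed by -0.52 (adjusted p 0.000434) in cells labelled fld, and the kinase Tyk2 fell too, at -0.55 and -0.75. In cells labelled fld 3 of 11 rose, Cish (1.38), Jak2 (1.56) and Jak1 (0.41), and Ptpn6, a phosphatase, fell (-0.81) with the other 2. The control change of Ptpn6 was -0.39 (limma adjusted p 0.0781). Il2rg and Socs1, which passed in control cells, changed by 0.22 (0.0613) and 0.02 (0.964) in cells labelled fld. The cytokines themselves did not pass, with Il4 at 0.34 and 0.49 and Il13 at -0.16 and 0.46, and Il13ra2 and Irs2 were not tested.

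Of 10 regulators, 3 rose and 3 fell in control cells, and 4 rose and 4 fell in cells labelled fld. Kdm6b, a histone demethylase, rose by 1.47 and 1.88, Batf3 by 1.05 and 1.04 and Cebpb by 0.58 and 0.62. Pparg, the nuclear receptor of lipid ligands, fell in both, at -1.14 (adjusted p 0.00352) and -0.91 (adjusted p 0.0119), as did its coactivator gene Ppargc1b (-0.81 and -0.59) and Egr2 (-0.81 and -1.15). In cells labelled fld Ppard also rose (0.75) and Klf4 fell (-0.79). Their control changes were 0.22 (limma adjusted p 0.137) and -0.63 (0.061), which did not pass.

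Of 17 other markers tested, 7 rose and 4 fell in control cells and 5 rose and 5 fell in cells labelled fld. The arginine transporter Slc7a2 rose by 3.47 (SE 0.36) and 2.81 (SE 0.33), and Il1rn, the interleukin-1 receptor antagonist, by 3.17 (SE 0.46) and 3.19 (SE 0.42), all with adjusted p of 0.000157 or less. The lipoxygenase Alox15 fell in both, at -2.95 (SE 0.59, adjusted p 0.00223) and -3.61 (SE 0.59, adjusted p 0.000493), and so did the chemokine Ccl24, at -1.24 (adjusted p 0.0189) and -1.73 (adjusted p 0.00553). The folate receptor gene Folr2 fell in cells labelled fld, at -1.46 (adjusted p 0.00949), and its control change was -0.84 (adjusted p 0.125). Of markers named after their values were seen, the mannose receptor Mrc1 rose by 1.72 and 2.35, and Arg1 changed by 0.54 (adjusted p 0.636) and 1.20 (adjusted p 0.21). The members of this list moved in both directions.

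Among relatives and partners of the 9 genes, 5 of 13 rose and 3 fell in control cells, and 6 rose and 3 fell in cells labelled fld. The IGF-binding protein genes Igfbp7 and Igfbp4 rose by 3.12 (adjusted p 1.49e-05) and 3.11 (adjusted p 0.000415) in control cells and Igfbp7 by 1.76 (adjusted p 0.00143) in cells labelled fld. There the fitted change of Igfbp4 was 3.25 (adjusted p 0.000264), with the gene well above background on only 1 of 4 untreated and 3 of 4 LPS arrays, so its size is not firmly measured. The receptor genes Igf1r, Igf2r and Insr fell beside Igf1, at -0.66, -0.88 and -0.91 in control cells and -0.75, -0.88 and -1.30 in cells labelled fld. The transglutaminase genes Tgm1 and Tgm3 rose beside Tgm2, by 2.42 and 1.24 in control cells and by 2.58 and 2.18 in cells labelled fld. The Retnla relative Retn changed by 0.55 (adjusted p 0.114) and 0.07 (adjusted p 0.841).

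**Figure D5:**
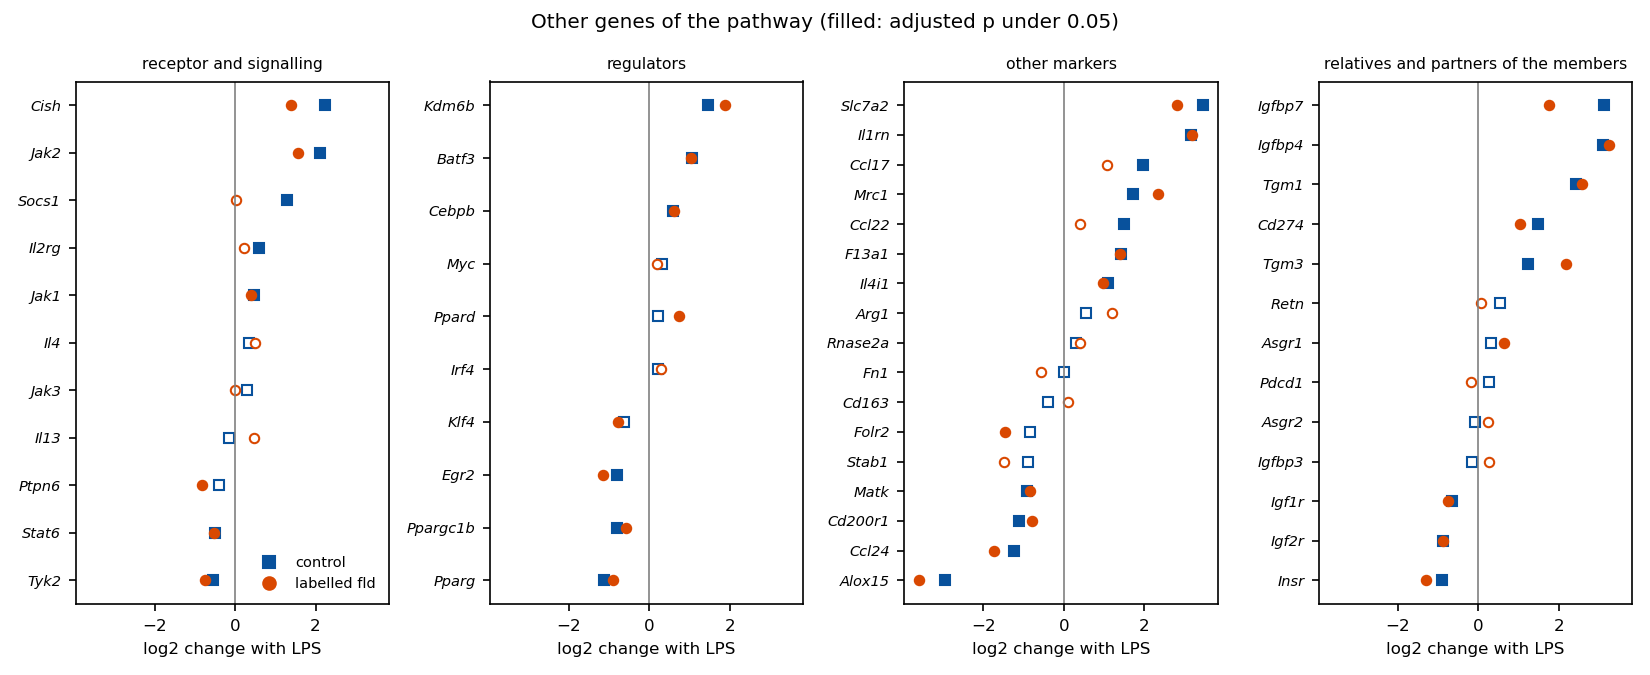
Log2 change with LPS over untreated of the 51 other pathway genes in 4 panels by list, in control arrays (squares) and arrays labelled fld (circles), ordered by the control change. Filled symbols passed the test. Slc7a2, Il1rn, Igfbp7 and Igfbp4 lie at the upper end and Alox15 at the lower end.

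Between genotypes without LPS 2 of these 51 genes were called, both higher in arrays labelled fld: Socs1 (0.94, adjusted p 0.0349) and Ppard (0.47, adjusted p 0.0179). Over all features 5.14% were called, nearly all of them higher, so the share and the direction are near those of all features. That count became 4 without untreated control replicate 1, 1 without untreated control replicate 4 or untreated fld replicate 3 or 4, and 0 without untreated control replicate 2 or 3 or untreated fld replicate 1. With LPS 5 were higher and 1 lower, with Ppard (1.0, adjusted p 7.81e-05), Il13 (0.92, adjusted p 0.0191), Asgr1 (0.72, adjusted p 0.025), Asgr2 (0.69, adjusted p 0.000791) and Tgm3 (0.58, adjusted p 0.00405) higher and Il2rg lower (-0.30, adjusted p 0.0318), and 3 were called without LPS control replicate 3. These 6 of 51 stand beside 17% of all features, again mostly higher. With array medians that count was 14. On LPS control arrays the 5 higher genes had mean levels of -3.35 to -1.63, and Il2rg had 2.44. Over all features the median difference with LPS was 0.278 without the filter on dim probes. It was 0.007 for probes well above background on all 16 arrays. The part of low signal in these calls was not tested. None of the 51 was called for the difference between LPS responses in limma, where 7 had an unadjusted p under 0.05, and 1 was called with quantile normalization.

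Across the 16 arrays the features closest in pattern to each member were found by Pearson correlation of levels. Differences between the 4 groups and their slides can enter these values, as can single arrays. Each value is the highest found over all features with a gene symbol, has no chance level beside it, and is given as a description. Il4ra ran closest to Gpr35 and Tgm1 (0.99 each), Igf1 to Mospd2 and Laptm4b (0.98 each) and Tgm2 to Arhgap23 and Pisd (0.97 each). Clec10a was closest to 3830406C13Rik (0.94) and Ate1 (0.93), and Il13ra1 to Mmp28 and Il21r (0.88 each). For members with little change the nearest features were less close for Mgl2, Faap24 (0.79) and Mtap (0.75), and for Retnla, Fancl (0.85) and Malsu1 (0.75). Chil3 ran with Prkcz (0.90) and Bdnf (0.88), and Pdcd1lg2 with Cenpq and Eif3g (0.88 each). Among the members, Il4ra and Tgm2 correlated at 0.84, Igf1 and Clec10a at 0.82, and Igf1 and Il4ra at -0.88.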

How the data were processed

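RNA of 16 samples was read on one-colour Agilent arrays (design 014868, Feature Extraction 9.5.1.1, per the file headers). The authors' deposited scanner files hold the processed intensity of 45018 spots, background-subtracted per the file headers. The deposited value table of the series holds a linear ratio, found here to be the processed intensity over each array's own median (all column medians are 1), no centring by gene and direction as measured. It was used as an alternative.

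The intensity was taken to log2, less the array's 75th percentile over the 43379 spots that are not controls. Spots with outlier flags (1.34% of values) were set to missing, and spots of a probe were averaged. Probes were kept if some group had all 4 arrays well above background, and, added after the design was set, with at least 2 unflagged values in each group, which left 25521 of 41174 probes. The brightest kept probe stood for a gene. Genes were named through RefSeq (GRCm38.p6): 22951 probes by accession, 6659 by symbol and 3109 by synonym, and 8455 kept the file's name. No member value was missing or saturated.

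Comparisons used limma 3.58.1 under R 4.3.3 (lmFit with 1 mean per group over all 16 arrays, eBayes, two-sided, Benjamini-Hochberg over 17461 features). The fit was tested on simulated data. Where arrays of a group are not separate mice, p-values measure technical spread only. Alternatives changed the background correction, scaling, filters, flags, probe rule, arrays fitted and replicate block, or left out arrays. Named were all 9 members, up to 3 called pathway genes per direction and comparison by size, the 2 nearest features of each member, Lpin1, and the few genes behind small counts. The members, lists and tests were chosen with earlier results of these data known.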

Additional observations from a re-analysis of the deposited data

Results flagged for a closer look

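In 3 of 36 sets of 4 arrays, each 1 member gene in 1 group, a single array stood far from the other 3 by Dixon's test, where chance marks about 1 set in 20. Igf1 read 1.01 on LPS replicate 4 of the arrays labelled fld, below the other 3 at 1.79 to 1.87. Mgl2 read -2.29 on untreated replicate 4 of the arrays labelled fld, above the other 3 at -2.93 to -2.89. Chil3 read -0.78 on LPS replicate 1 of the arrays labelled fld, below the other 3 at 0.10 to 0.26. The arrays of the first 2 are the fld arrays on which all 4 Lpin1 probes were well above background. LPS replicate 4 was also the dimmest array, with a 75th percentile of intensity of 189.2.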

How the results depend on the processing

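Of 1206 values, from 45 member results under up to 27 alternatives, 1185 kept their direction where called and their side of the threshold, 6 lost and 15 gained a call, and none that was called changed sign. The alternatives are not separate checks, since the value table repeats the array medians and many omissions concern an array outside the comparison. The member counts for LPS, 3 in control cells and 4 in cells labelled fld, and 0 for the difference of responses, were the same under every alternative run. For fld over control without LPS the count of 1 became 0 with normexp and ran from 0 to 1 on leaving out single arrays. With LPS the count of 0 became 1 with normexp, with quantile normalization or with the mean over a gene's probes, 4 with array medians and with the deposited value table, and 0 to 1 on leaving out single arrays. The single calls were Il13ra1 with normexp (0.71, adjusted p 0.041) and the probe mean (0.68, 0.0465), and without untreated control replicate 1 (0.0499) or 3 (0.0232) or LPS fld replicate 1 (0.046) or 3 (0.0336), and Mgl2 with quantile normalization. The cause of these changes was not tested.

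Features called between untreated genotypes, 898, became 41 with normexp, 542 with quantile normalization, 466 with probes above background on all arrays, 1688 with only those groups fitted, and 357 to 1617 on leaving out single arrays (423 and 461 without control replicate 2 or 3, 357 and 495 without fld replicate 1 or 4, 1617 without LPS fld replicate 4). With LPS, 2969 became 8454 with array medians or the value table, and the difference of responses, 0, became 7 with these, 13 with quantile normalization and 0 to 1 on leaving out single arrays. Pathway genes called, a count added after seeing the data, were 14 with LPS with array medians or the value table and 3 with only those groups fitted. Without LPS they were 0 with normexp and 1 with array medians, quantile normalization, the value table, no filter on dim probes or both replicate 4 arrays left out. For the difference of responses 1 was called with quantile normalization.

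Same-numbered untreated and LPS arrays correlated in their deviations at 0.09 to 0.26 in control and -0.10 to 0.20 in fld arrays. Differently numbered arrays correlated at -0.26 to 0.21 in control and -0.42 to 0.38 in fld arrays. In control arrays the same-numbered values were all positive and most others negative, so a pairing there is not settled. The numbers were not taken to pair arrays in the main fit. With the replicate block the member counts were 3, 4, 1, 0 and 0, with no call changed, and the counts over all features were 4930, 6971, 1210, 3080 and 0. Between genotypes that block joined control and fld arrays of the same number, which come from different mice.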
